A study of Mus musculus with 9 samples.

Results

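Transcripts of 10 genes that neutrophils express strongly were followed through RNA-Seq libraries of lung fibroblasts sorted by FACS. The genes are S100a8, S100a9, Csf3r, Cxcr2, Retnlg, Clec4d, Clec4e, Ccr1, Cxcr4, and Trem1, and they were taken by gene name from the 43346 genes of the deposited table. All 10 were found, and all 10 were among the 16877 genes abundant enough to be tested. The rule used gene names only and no measured value, but the list was chosen with earlier results of these data known.

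The mice were aged males, 18 months old in the protocol and 72 weeks in the sample labels, on an FVB background. All of them carried the Col1a1-GFP transgene, in which GFP is driven by a collagen I promoter, so that GFP marks cells with an active collagen promoter and not fibroblasts as such. Aged sham mice (4 libraries) received saline and aged bleo mice (5 libraries) received bleomycin, a DNA-damaging drug that injures the lung and leaves it fibrotic, as a single intratracheal dose. On day 30, GFP+ cells without CD45, CD31, or EpCAM on their surface were sorted and their polyadenylated RNA was sequenced, with 1 library for each mouse as far as the protocol tells.

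Neutrophils are short-lived granulocytes that leave the bone marrow in response to G-CSF and enter inflamed lung along gradients of CXC chemokines. They store very large amounts of the S100a8 and S100a9 proteins, which pair into the antimicrobial alarmin calprotectin, and they carry receptors for chemokines, growth factors, and microbial ligands. CD45 is on the surface of nearly all leukocytes, neutrophils included, and the sort was set to leave CD45+ cells out.

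The 10 genes lie on 7 chromosomes, and 4 of them form neighbouring pairs without another protein-coding gene between them. S100a8 and S100a9 are 22597 bases apart on chromosome 3, and Clec4d and Clec4e are 6520 bases apart on chromosome 6. Over the 9 libraries Pearson's r of the log2 levels was 0.992 for S100a8 and S100a9 and 0.976 for Clec4d and Clec4e. Such values were common among the members, as r over all 45 pairs had a median of 0.967 and a range of 0.801 to 0.993. The 250 bases before the start of these 4 genes are shown because the genes of each pair are neighbours (RefSeq, GRCm38.p6, 5′ to 3′ along each gene). They are chr3:90668821-90669070 on the plus strand for S100a8, chr3:90695722-90695971 on the minus strand for S100a9, chr6:123261857-123262106 on the plus strand for Clec4d, and chr6:123289872-123290121 on the minus strand for Clec4e. Capitals mark matches, on either strand, to the C/EBP letters TTNNGCAA or the PU.1 letters GAGGAAG, after myeloid transcription factors.
S100a8: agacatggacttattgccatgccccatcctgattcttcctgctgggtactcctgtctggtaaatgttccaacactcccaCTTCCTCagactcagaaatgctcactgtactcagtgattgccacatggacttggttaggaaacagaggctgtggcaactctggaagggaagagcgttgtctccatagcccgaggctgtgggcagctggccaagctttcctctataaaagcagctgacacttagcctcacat
S100a9: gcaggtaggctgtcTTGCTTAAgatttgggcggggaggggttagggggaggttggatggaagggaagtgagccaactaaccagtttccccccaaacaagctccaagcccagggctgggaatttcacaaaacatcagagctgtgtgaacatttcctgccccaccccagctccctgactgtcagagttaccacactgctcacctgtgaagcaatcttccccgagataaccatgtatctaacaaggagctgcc
Clec4d: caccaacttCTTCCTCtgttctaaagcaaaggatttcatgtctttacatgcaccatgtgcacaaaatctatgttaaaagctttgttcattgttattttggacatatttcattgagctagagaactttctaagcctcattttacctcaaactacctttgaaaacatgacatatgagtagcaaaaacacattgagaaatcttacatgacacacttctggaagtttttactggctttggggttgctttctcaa
Clec4e: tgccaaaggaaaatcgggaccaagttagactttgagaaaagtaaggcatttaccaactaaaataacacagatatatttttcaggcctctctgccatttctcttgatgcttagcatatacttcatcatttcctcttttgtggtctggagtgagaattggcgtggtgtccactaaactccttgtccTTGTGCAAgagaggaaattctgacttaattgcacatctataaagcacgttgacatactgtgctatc
In each pair, the gene on the plus strand had a PU.1 match and the gene on the minus strand a C/EBP match. Among all 10 genes, 3 had a C/EBP match (Clec4e, Retnlg, and S100a9), and 9.56% of 32851 mouse promoter windows of this length had one. A PU.1 match was found in 3 others (Clec4d, Csf3r, and S100a8), and in 10.6% of all windows. No member held both, against 0.950% of all windows. These letters describe the windows and are no evidence of binding.

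Fibroblast transcripts were abundant in the sorted libraries, and leukocyte transcripts were scarce beside them. Col1a1 was at 3649 to 4559 CPM (read counts scaled to library size, with TMM factors) in aged sham and at 13560.2 to 25954 CPM in aged bleo. The gate genes of endothelium and epithelium were low, with Pecam1 (CD31) at 2.44 to 6.70 CPM and Epcam at 0.409 to 1.201 CPM over the 9 libraries. Ptprc, which encodes CD45, was well above them. It was at 42.3, 44.7, 92.4, and 169 CPM in aged sham 1 to 4 and at 30.6, 31.2, 43.6, 183, and 36.4 CPM in aged bleo 1 to 5. Between 49921946 and 68260600 reads were counted per library, and 3 counts, the most that a count of 0 allows, were worth 0.0409 to 0.0605 CPM. The names of all aged sham libraries and of aged bleo 4 end in the same digit, which differs from that of the other aged bleo libraries, and what the digit stands for is not stated.

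Neutrophil transcripts were detected in every library, and they varied far more between mice of a group than between the groups. Summed over the 10 genes, they were at 247, 301, 647, and 1398 CPM in aged sham 1 to 4 and at 196, 139, 215, 1262, and 126 CPM in aged bleo 1 to 5. Aged sham 4 and aged bleo 4 thus stood high in their groups, and aged sham 3 lay between them and the rest. The 10 genes made up 0.0128% to 0.139% of all counts. Aged sham 4 was the highest and aged sham 3 the second highest aged sham library for 10 of 10 genes, and aged bleo 4 was the highest aged bleo library for 10 of 10. Of all genes tested, 28.9% were highest among aged bleo libraries in aged bleo 4, 25.9% among aged sham libraries in aged sham 4, and 10.1% in both.

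**Figure D1:**
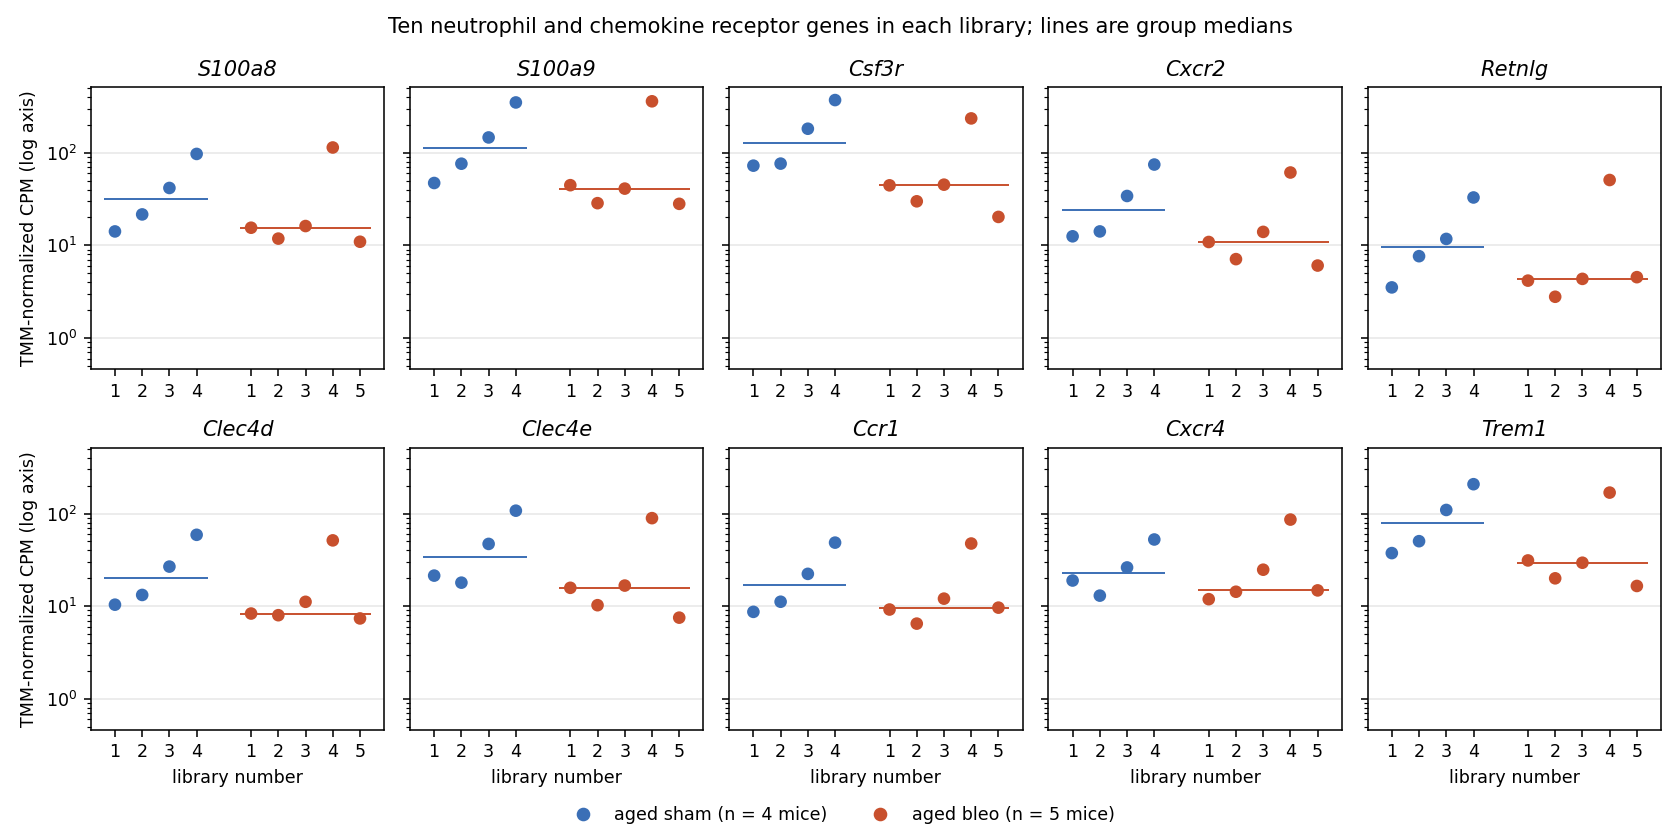
Each panel plots 1 gene as TMM-normalized CPM on a log axis, with 1 point per library (blue, 4 aged sham; red, 5 aged bleo) and a line at each group's median. In all 10 panels aged sham 4 and aged bleo 4 are the highest points of their groups, and the points of the groups overlap.

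S100a8 and S100a9, which encode the subunits of calprotectin, were the most abundant members per length. S100a8 (ENSMUSG00000056054, chromosome 3, 90669071 to 90670034) was at 14.1, 21.6, 41.7, and 97.1 CPM in aged sham 1 to 4 and at 15.5, 11.8, 16.2, 114, and 10.9 CPM in aged bleo 1 to 5. S100a9 (ENSMUSG00000056071, chromosome 3, 90692632 to 90695721) was at 47.1, 76.1, 146, and 349 CPM in aged sham and at 44.6, 28.6, 41.0, 359, and 28.1 CPM in aged bleo. For both genes aged bleo 4 was the highest of all 9 libraries, and the other aged bleo libraries lay below the level of aged sham 1 except for S100a8 in aged bleo 1 and 3. Neither gene passed the thresholds (FDR below 0.10 and more than 1.5-fold) in edgeR's quasi-likelihood test, where the FDR is the Benjamini-Hochberg adjusted p over all genes tested. The log2 fold change of aged bleo against aged sham was -0.37 for S100a8 (SE 0.83, FDR 0.760) and -0.62 for S100a9 (SE 0.90, FDR 0.619). The means of S100a9 were 155 ± 136 CPM (SD, n = 4) and 100.2 ± 145 CPM (SD, n = 5), so that its SD exceeded the difference between the groups.

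Csf3r and Cxcr2 encode the receptors that release neutrophils from the marrow and draw them into tissue. Csf3r (ENSMUSG00000028859, chromosome 4, 126024550 to 126044440), the receptor for G-CSF, was at 72.5, 76.3, 182, and 370.1 CPM in aged sham 1 to 4 and at 44.5, 29.9, 45.2, 235, and 20.3 CPM in aged bleo 1 to 5. Its highest library was 18.2-fold above its lowest, a span that only Retnlg matched (also 18.2-fold), and 4 of the 5 aged bleo libraries were below all aged sham libraries. Its fitted difference was also the largest in size, and it did not pass the FDR threshold (edgeR log2 fold change -1.22, SE 0.78, FDR 0.247). Cxcr2 (ENSMUSG00000026180, chromosome 1, 74153989 to 74161246), the receptor for CXC chemokines such as Cxcl1 and Cxcl2, was at 12.5, 14.2, 34.1, and 74.6 CPM in aged sham and at 10.9, 7.11, 14.0, 61.2, and 6.06 CPM in aged bleo. Its groups overlapped through aged bleo 3 and aged bleo 4 (log2 fold change -0.77, SE 0.78, FDR 0.475 in edgeR).

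Ccr1 and Cxcr4 encode chemokine receptors that other leukocytes share with neutrophils. Ccr1 (ENSMUSG00000025804, chromosome 9, 123962126 to 123968692), which binds Ccl3 and related CC chemokines, was at 8.69, 11.2, 22.3, and 48.5 CPM in aged sham 1 to 4 and at 9.21, 6.49, 12.1, 47.5, and 9.65 CPM in aged bleo 1 to 5. Aside from aged bleo 4, its aged bleo libraries overlapped the lower aged sham libraries. Cxcr4 (ENSMUSG00000045382, chromosome 1, 128588199 to 128592293), the receptor for Cxcl12 that holds neutrophils in the marrow and is found on many other leukocytes, was at 18.9, 13.0, 26.2, and 52.5 CPM in aged sham and at 11.9, 14.3, 24.8, 86.0, and 14.8 CPM in aged bleo. It had the narrowest span of the 10 genes, 7.23-fold, and was the only member with a positive log2 fold change over all 9 libraries (0.14, SE 0.65, FDR 0.888 in edgeR).

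The C-type lectins Clec4d and Clec4e and the amplifying receptor Trem1 are surface receptors for microbial and damage signals on neutrophils and monocytes. Clec4d (ENSMUSG00000030144, chromosome 6, 123262107 to 123275268) was at 10.4, 13.2, 26.8, and 58.9 CPM in aged sham 1 to 4 and at 8.33, 8.00, 11.2, 51.3, and 7.38 CPM in aged bleo 1 to 5. Clec4e (ENSMUSG00000030142, chromosome 6, 123281789 to 123289870), known as Mincle, was at 21.4, 17.9, 47.0, and 107 CPM in aged sham and at 15.8, 10.3, 16.7, 89.2, and 7.53 CPM in aged bleo. Trem1 (ENSMUSG00000042265, chromosome 17, 48232768 to 48246924) was at 37.4, 50.3, 109, and 207 CPM in aged sham and at 31.2, 19.99, 29.5, 168, and 16.5 CPM in aged bleo. In Clec4e and Trem1 only aged bleo 4 overlapped the aged sham range, and in Clec4d aged bleo 3 did so too. Their log2 fold changes in edgeR were -0.66 for Clec4d (SE 0.72, FDR 0.506), -0.79 for Clec4e (SE 0.80, FDR 0.471), and -0.93 for Trem1 (SE 0.77, FDR 0.376), none past the thresholds.

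Retnlg encodes a resistin-like protein of mouse neutrophils and was the least abundant member by CPM in 8 of 9 libraries. It (ENSMUSG00000022651, chromosome 16, 48872608 to 48874498) was at 3.52, 7.65, 11.7, and 32.9 CPM in aged sham 1 to 4 and at 4.17, 2.79, 4.35, 50.8, and 4.54 CPM in aged bleo 1 to 5. Aged bleo 4 stood 12.8 times above the mean of the other aged bleo libraries, the largest such ratio among the members, whose ratios began at 5.08 for Ccr1. The group means of Retnlg were nearly equal, at 14.0 ± 13.1 CPM (SD, n = 4) and 13.3 ± 20.9 CPM (SD, n = 5), with a log2 fold change of -0.06 (SE 0.98, FDR 0.971 in edgeR).

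Over all 9 libraries, 0 of the 10 genes passed the thresholds, where 23.8% of all genes tested did (11.5% lower and 12.3% higher in aged bleo). None had an unadjusted p under 0.05 in edgeR, and DESeq2 and limma-trend, which called 24.5% and 23.9% of all genes, also called 0 of 10. The fitted log2 fold change was negative for 9 of 10, with a median of -0.64 against 0.01 over all genes tested. This count turned on aged bleo 4, the highest aged bleo library for all 10 genes. Leaving it out lowers the aged bleo mean of each gene by construction, and it was singled out by these same values. The calls and FDRs without it therefore show its weight and are no independent test of the treatment. With aged bleo 4 left out, 9 of 10 genes passed the thresholds as lower in aged bleo, with 11.7% of all genes lower in that fit. Csf3r then had a log2 fold change of -2.33 (SE 0.55, FDR 0.0129), S100a9 of -2.13 (SE 0.57, FDR 0.0208), and Trem1 of -2.06 (SE 0.52, FDR 0.0167), all from edgeR, and Cxcr4 was the exception (-0.76, SE 0.42, FDR 0.187). In these 8 libraries the groups did not overlap for Csf3r, S100a9, Clec4e, and Trem1, a separation toward lower values found in 18% of all genes.

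Aged sham 4, likewise singled out by these values, pulled in the opposite direction. Without it, 0 of 10 genes passed the thresholds in edgeR beside 22.3% of all genes, 6 of 10 fitted log2 fold changes were positive, and their median was 0.10. With both aged sham 4 and aged bleo 4 left out, 8 of 10 genes were lower in aged bleo past the thresholds, all but Ccr1 (log2 fold change -0.60, FDR 0.208) and Cxcr4 (-0.25, FDR 0.554), with a median of -1.04 and 11% of all genes lower. In bulk RNA, fewer neutrophils in a sort and less of each transcript per neutrophil cannot be told apart. Whether the digit that ends the library names bears on these levels cannot be told. Only aged bleo 4 among the aged bleo libraries shares it with aged sham, so there it cannot be told apart from the mouse. Without aged bleo 4, no aged bleo library shares the digit with aged sham, so digit and treatment cannot be told apart in those fits.

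**Figure D2:**
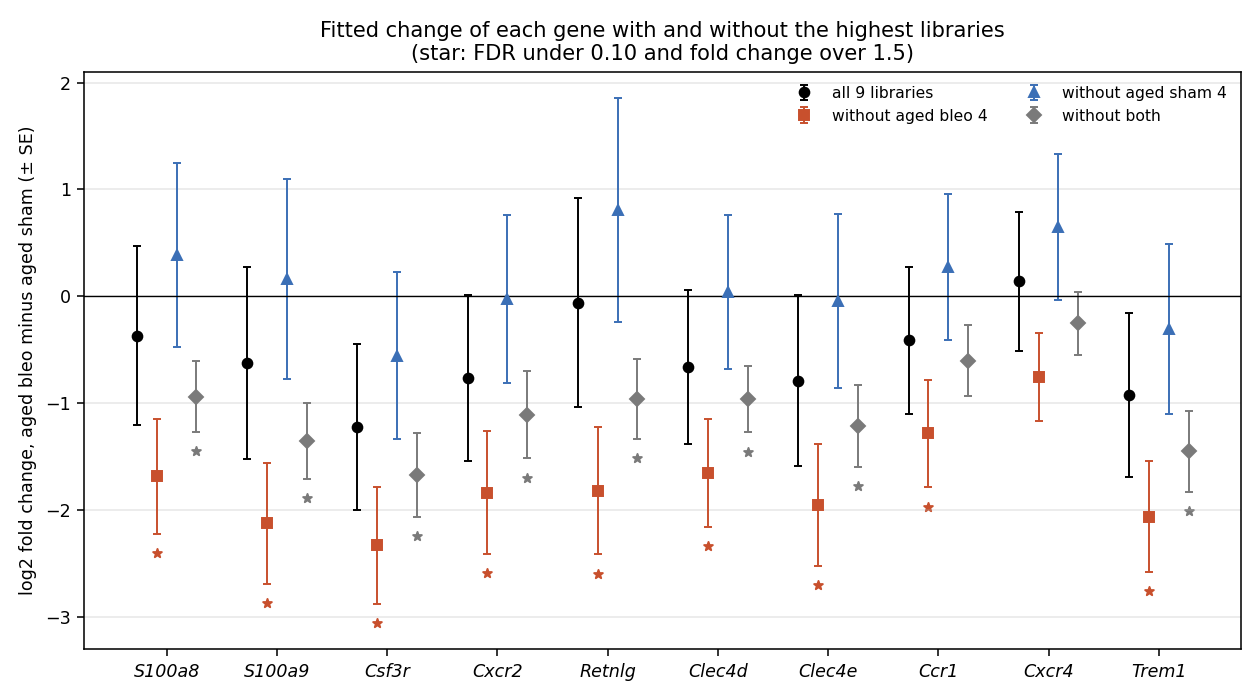
The fitted log2 fold change of aged bleo against aged sham (± SE, edgeR) is plotted for each gene over all 9 libraries and without aged bleo 4, aged sham 4, or both, with a star where the FDR was below 0.10 and the change more than 1.5-fold. No black point (all libraries) has a star, 9 of 10 red squares (without aged bleo 4) do, and the blue triangles (without aged sham 4) lie around 0.

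Levels of different genes were compared per length with the deposited FPKM values (fragments per kilobase of gene length, scaled to a library total). Averaged over the 9 libraries, S100a9 was at 101.7 FPKM, S100a8 at 41.5, Csf3r at 14.0, Trem1 at 10.6, Retnlg at 9.63, Clec4d at 6.93, Cxcr4 at 6.92, Cxcr2 at 3.64, Clec4e at 3.18, and Ccr1 at 2.94 FPKM. The order S100a9, S100a8, Csf3r, and Trem1 held in all 9 libraries. Cxcr4 was also above Cxcr2 in 9 of 9 libraries. Further down the order the neighbours changed places, since Trem1 was above Retnlg in 7 libraries, Retnlg above Clec4d in 5, Clec4d above Cxcr4 in 3, Cxcr2 above Clec4e in 8, and Clec4e above Ccr1 in 4. The last of these neighbours therefore do not differ beyond their spread over the libraries.

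The proportions of the members were compared as well. Each gene was set against the mean log2 CPM of all 10 in its library, which takes the total out. On this log2 scale Csf3r was 1.81 to 2.04 above the mean in the aged sham libraries and 0.90 to 1.55 above it in the aged bleo libraries, with no overlap. Trem1 was 1.05 to 1.27 above the mean in aged sham and 0.61 to 1.04 above it in aged bleo, also without overlap, though its nearest libraries almost touched. The groups overlapped for the other 8 members. When all genes tested were set against the same mean, the groups separated without overlap for 0.083% with aged bleo lower and for 2.63% with aged bleo higher. These shares cannot be read against the members, because the members form this mean and vary with it. The mean of Cxcr4 was -0.59 in aged sham and 0.15 in aged bleo, with overlap through aged sham 1. Ccr1 likewise lay higher on average in aged bleo, by 0.35, with overlap through aged bleo 4. These proportions were examined after the values had been seen, so they are given as a description without a test.

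Of 9 ratios of FPKM between members of the same library, 3 did not overlap between the groups and 6 did. S100a9 was 2.503 to 2.70 times S100a8 in the aged sham libraries and 1.81 to 2.37 times in the aged bleo libraries. Csf3r was 0.385 to 0.558 times S100a8 in aged sham and 0.202 to 0.312 times in aged bleo. The groups overlapped in neither ratio. Of all genes, 0.13% had a ratio to S100a8 that was lower in every aged bleo library, a share with the same limit. Cxcr4 was 0.283 to 0.521 times Csf3r in aged sham and 0.534 to 1.46 times in aged bleo, a ratio to Csf3r that separated upward in 5.45% of all genes. Aged bleo 4, whose summed level resembled that of aged sham 4, was at 2.37 for S100a9 to S100a8. It was at 0.224 for Csf3r to S100a8 and at 0.732 for Cxcr4 to Csf3r. These 3 ratios were taken for their lack of overlap, so aged bleo 4 lies on the aged bleo side by that choice. Among the ratios that overlapped, Csf3r was 0.145 to 0.223 times S100a9 in aged sham and 0.0947 to 0.160 times in aged bleo, and Trem1 was 0.622 to 0.794 times Csf3r in aged sham and 0.785 to 0.982 times in aged bleo. The other 4 were Cxcr4 and Ccr1 to Cxcr2, Clec4d to Clec4e, and Retnlg to S100a8. Macrophage transcripts, given further on, were higher in aged bleo as well, and their part in these ratios was not tested.

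**Figure D3:**
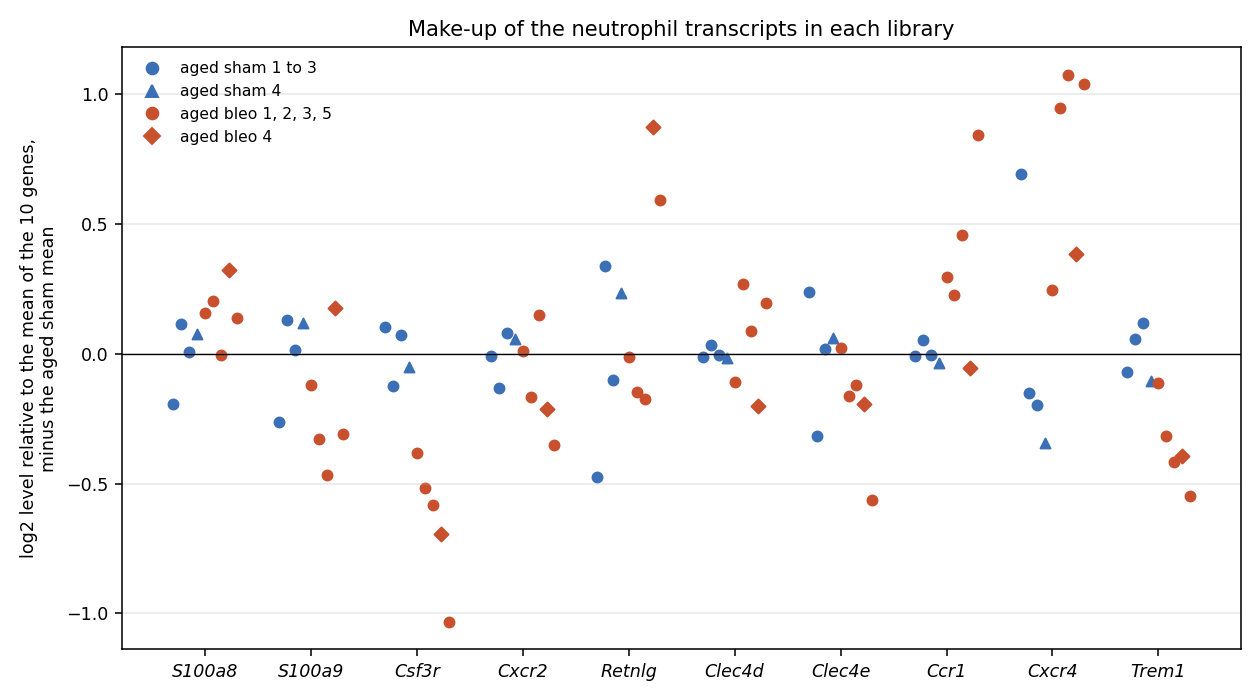
For each gene the plot gives its log2 CPM relative to the mean of the 10 genes in the same library, minus the aged sham mean, with 1 point per library (blue, aged sham; red, aged bleo; triangle and diamond, aged sham 4 and aged bleo 4). All red points lie below all blue points for Csf3r and Trem1, and the red points of Cxcr4 lie above 3 of its 4 blue points.

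Other genes of mature neutrophils peaked in the same library of each group as the 10 members, but not all followed them closely. Of 15 such genes, 14 were tested, and 0 passed the thresholds in edgeR, with 1 at an unadjusted p under 0.05, while DESeq2 called 2 (G0s2 and Padi4, both lower in aged bleo). The median log2 fold change was -0.65. It was negative for 11 of the 14, and the largest positive values were those of Cd177 (0.96) and Mmp8 (0.86). All 15 were highest among aged bleo in aged bleo 4 and among aged sham in aged sham 4, and their summed level spanned 137 to 596 CPM over the aged sham libraries and 100.2 to 569 CPM over the aged bleo libraries. Without aged bleo 4, 9 of 14 were lower in aged bleo past the thresholds, beside 11.7% of all genes in that fit. The most abundant was Hdc, the histamine-forming enzyme, which basophils and mast cells express as well. It was at 51.3, 44.8, 90.6, and 196 CPM in aged sham 1 to 4 and at 39.3, 44.7, 120, 233, and 36.7 CPM in aged bleo 1 to 5. The gelatinase Mmp9 was at 19.7, 30.6, 33.2, and 93.7 CPM in aged sham and at 21.9, 19.7, 25.4, 85.9, and 14.8 CPM in aged bleo. Mmp8, neutrophil collagenase, did not share the low levels of the members in aged bleo 1, 2, 3, and 5. It was at 1.66, 2.55, 5.04, and 13.0 CPM in aged sham and at 7.33, 3.48, 5.64, 20.8, and 13.2 CPM in aged bleo. Ly6g, the antigen by which mouse neutrophils are usually gated, was too scarce to be tested, at 0.145, 0.188, 0.370, and 1.01 CPM in aged sham and 0.0930, 0.124, 0.224, 1.12, and 0.146 CPM in aged bleo.

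Granule genes that are switched on in neutrophil precursors of the marrow were scarce. Of 8 such genes 4 were tested, and Elane, Mpo, Ctsg, and Cebpe fell under the filter. Elane, which encodes neutrophil elastase, reached 0.130 CPM at most, and Mpo, myeloperoxidase, 0.737 CPM. The summed level of the 8 genes was 1.26 to 9.78 CPM in aged sham and 2.73 to 46.1 CPM in aged bleo. The secondary granule gene Ngp was the most abundant, at 0.0969, 2.498, 3.15, and 3.67 CPM in aged sham 1 to 4 and at 0.0930, 5.76, 1.23, 19.8, and 1.39 CPM in aged bleo 1 to 5. Ngp and the members were thus high together in aged bleo 4, but Ngp was near its limit of detection in aged sham 1 and aged bleo 1, where the members were present. Camp and Ltf, of the same granules, were also lowest in these libraries. Camp had a log2 fold change of 2.12 (SE 1.19, FDR 0.194) and Ltf of 1.07 (SE 1.18, FDR 0.513), neither past the thresholds in edgeR. Camp, with 3 to 25 counts per aged sham library, entered the test only through its 376 counts in aged bleo 4. Prtn3, a serine protease gene, was the only gene among the 4 to pass the thresholds (log2 fold change 0.65, SE 0.21, FDR 0.0377), beside 12.3% of all genes tested that were higher. The median of the 4, Camp included, was 1.17. Camp, Ltf, and Ngp peaked in aged bleo 4, at 5.13, 17.7, and 19.8 CPM. Their group medians were lower after bleomycin than after saline. These were 0.374 against 0.407 CPM for Camp, 1.49 against 2.72 for Ltf, and 1.39 against 2.83 for Ngp. The positive fold changes of Camp and Ltf therefore do not stand for a rise in most bleomycin libraries. Prtn3 had the higher median after bleomycin, 1.48 against 1.03 CPM.

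Across libraries the members varied with the mature neutrophil genes, and no such relation passed the test for macrophage genes. Pearson's r of each member with the mean log2 CPM of the 14 tested mature neutrophil genes ran from 0.901 for Cxcr4 to 0.997 for S100a8 over 9 libraries, and Spearman's rho from 0.667 to 1 for the same genes. By exact permutation of the libraries with adjustment over 20 relations, r passed 0.05 for 10 of 10 genes and rho for 9 of 10. For S100a8 the exact permutation p of r was 2.76e-06, the smallest that 362880 orders can give, and 5.51e-05 adjusted. For Cxcr4 it was 0.00298, and 0.00597 adjusted, and rho gave 0.0589, and 0.118 adjusted. Within treatments r was 0.929 to 0.997, past 0.05 for 10 of 10. When the libraries with the most extreme values of the mature neutrophil mean (aged bleo 4 and aged sham 4) were left out, r over the other 7 libraries was 0.898 to 0.989 for 9 of the genes. It was 0.550 for Cxcr4, whose relation rests on these 2 libraries (exact permutation p = 0.203, adjusted 0.407). Within treatments in these 7 libraries, r was 0.507 to 0.982. The exact permutation p was then under 0.05 for 6 of 10 genes before adjustment and for 0 of 10 after it, with 144 orders to draw from, and Retnlg (0.132), Clec4e (0.0764), Ccr1 (0.0556), and Cxcr4 (0.333) missed it unadjusted.

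With the mean of the 12 tested monocyte and macrophage genes, r ran from -0.000627 for Csf3r to 0.502 for Cxcr4 and rho from -0.233 for Trem1 to 0.267 for Cxcr4. None of the 10 relations passed 0.05 by exact permutation after adjustment, pooled or within treatments, where r was 0.489 to 0.736. Leaving out aged bleo 4 and aged bleo 5, the most extreme for this list, pooled r was -0.252 to 0.109. Within treatments in these 7 libraries r was 0.153 to 0.395, positive for 10 of 10. There 0 of 10 passed 0.05 by exact permutation, before or after adjustment. Of the 12 macrophage genes, 5 were higher in aged bleo past the thresholds (Lyz2, Cd68, Mrc1, Ccr2, and Emr1), beside 12.3% of all genes tested. The 12 genes had a median log2 fold change of 1.33. Their summed level was 149.5 to 285 CPM in aged sham against 454 to 1617 CPM in aged bleo. Like the members, 12 of 12 macrophage genes were highest among aged bleo in aged bleo 4, and 8 of 12 were highest among aged sham in aged sham 4. The most abundant was Lyz2, the lysozyme gene that neutrophils express too. The summed level of the members was 1.28 to 4.91 times that of the macrophage genes in aged sham. It was 0.138 to 0.780 times in aged bleo, with no overlap. The macrophage sum alone already separated the groups and the member sum did not, so this is no result about the members by themselves.

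Genes shared by all leukocytes took a course between these. All 10 pan-leukocyte genes were highest in aged sham 4 and aged bleo 4 within their groups, and their sum was 195 to 695 CPM in aged sham and 209 to 1059 CPM in aged bleo. Laptm5 alone passed the thresholds, as higher in aged bleo, beside 12.3% of all genes tested. The median log2 fold change of the 10 was 0.30. The most abundant, Lcp1, was at 47.7 to 156 CPM in aged sham and at 51.2 to 238 CPM in aged bleo. Ptprc had a log2 fold change of -0.42 (SE 0.64, FDR 0.643 in edgeR). The sum of the members was 1.26 to 2.01 times the pan-leukocyte sum in aged sham and 0.432 to 1.19 times in aged bleo, again without overlap. These ratios were computed with the values known, carry no test, and were not computed for all genes. Whether cells that passed the gate or RNA released by other cells carried these transcripts was not tested.

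**Figure D4:**
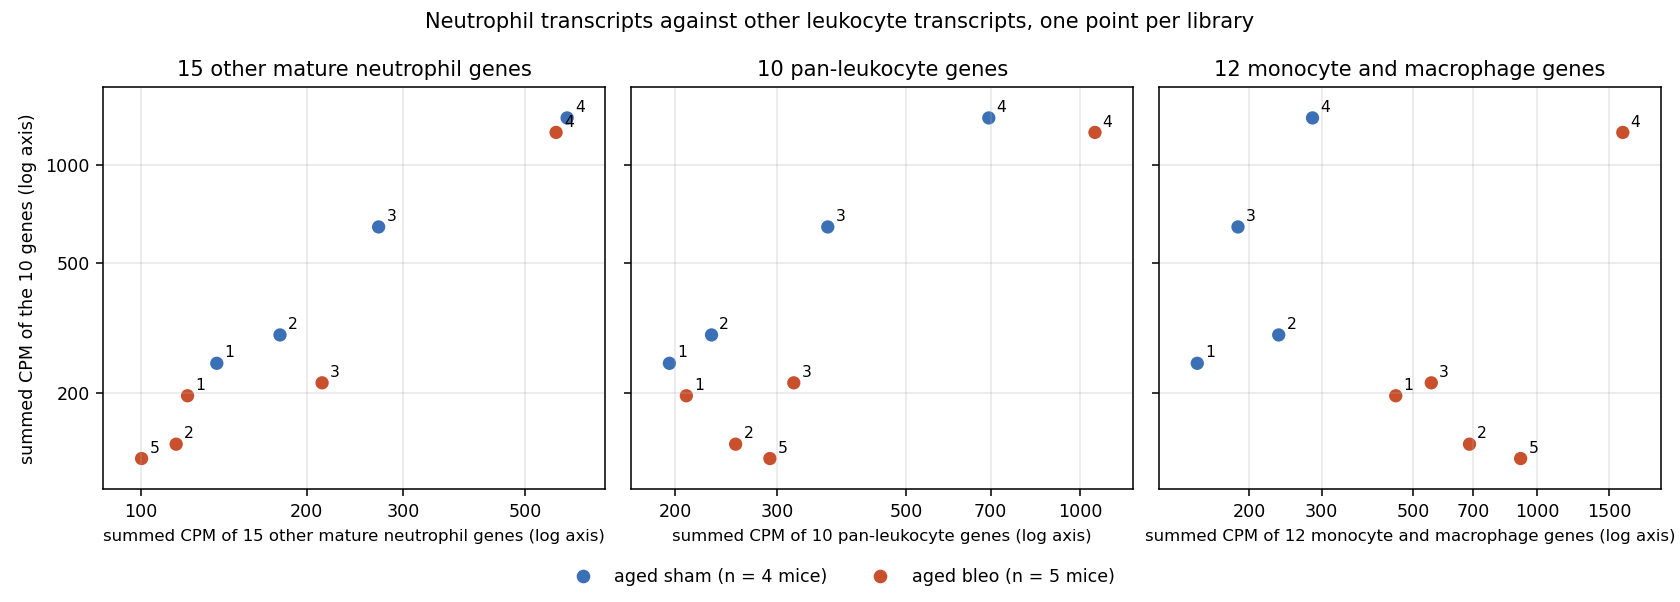
The summed CPM of the 10 genes (vertical, log axis) is plotted against the summed CPM of 15 mature neutrophil genes, 10 pan-leukocyte genes, and 12 monocyte and macrophage genes (horizontal, log axes), with 1 numbered point per library (blue, aged sham; red, aged bleo). In the left panel the libraries of both groups form a common band, and in the right panel the aged bleo libraries lie to the right of all aged sham libraries.

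The ligands that act on these receptors, their decoy receptors, and their signalling adaptors moved in both directions. All 19 such genes were tested. In aged bleo 5 of them rose and 6 fell past the thresholds, beside 12.3% and 11.5% of all genes tested. The median log2 fold change of the 19 was -0.08. Among the ligands of Cxcr2, Cxcl1 was lower (log2 fold change -1.05, FDR 0.0303), as was Ppbp (-1.31, FDR 0.0399), whereas Cxcl3 (2.42, FDR 0.0534) and Cxcl5 (2.39, FDR 0.0486) were higher, all in edgeR. The groups overlapped for each of these genes. Cxcl5 was at 40.5 CPM in aged bleo 3 and at 4.99 to 7.94 CPM in the other aged bleo libraries, against up to 5.81 CPM in aged sham. Cxcl5 did not pass the thresholds under DESeq2, nor Cxcl3 under limma-trend. Without aged sham 2, Cxcl3, Cxcl5, and Ppbp did not pass them in edgeR. Cxcl1 was the most abundant of the 19, at 681, 568, 475, and 380.3 CPM in aged sham 1 to 4 and 256, 313, 399, 126, and 176 CPM in aged bleo 1 to 5. It was lowest within each group in aged sham 4 and aged bleo 4, the libraries richest in the members. Cxcl2 was at 50.1 ± 19.6 CPM (SD, n = 4) and 45.5 ± 37.3 CPM (SD, n = 5), not past the thresholds (-0.14, FDR 0.860), and was highest in aged sham 4 and aged bleo 4. Csf3, which encodes G-CSF, was at 4.24 ± 4.39 and 4.01 ± 4.80 CPM (-0.08, FDR 0.949).

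Of the ligands of Ccr1, Ccl3 (log2 fold change 3.95, FDR 0.00643), Ccl9 (2.63, FDR 0.00553), and Ccl6 (1.42, FDR 0.0365) were higher in aged bleo and Ccl7 was lower (-0.79, FDR 0.0565), while Ccl5 did not pass the thresholds (-0.08, FDR 0.940 in edgeR). Cxcl12, the ligand of Cxcr4 and a strongly expressed fibroblast gene, was at 384, 416, 426, and 418 CPM in aged sham 1 to 4 and 395, 382, 310.0, 191, and 247 CPM in aged bleo 1 to 5 (-0.43, SE 0.20, FDR 0.121). Its decoy receptor Ackr3 was lower in every aged bleo library, at 476 ± 13.9 CPM (SD, n = 4) and 115 ± 56.6 CPM (SD, n = 5) (-2.04, SE 0.34, FDR 0.00243 in edgeR). Both receptors of calprotectin were lower as well, Tlr4 by a log2 fold change of -0.88 (FDR 0.00723) and Ager, a marker of alveolar type I epithelium, by -3.32 (FDR 0.000999). The adaptors through which Clec4d, Clec4e, and Trem1 signal, Fcer1g, Tyrobp, Syk, and Card9, did not pass the thresholds, with log2 fold changes of 0.57, 0.14, -0.28, and -0.03.

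Among the 15260 other tested genes with a mean of at least 1 CPM, those most like the mean of the 10 members over the 9 libraries included Gm5150, Amica1, F630028O10Rik, Ipcef1, Gm10684, Siglece, Lilra6, Fgr, and Dusp2, with Pearson's r from 0.998 down to 0.990. Fgr encodes a Src-family kinase of myeloid cells. Ptprc stood at place 23 of this ranking and Lyz2 at place 7842. Cxcr4 differed from the other members here too. Its 9 correlations with them were 0.801 to 0.922, whereas the 36 among the others were 0.878 to 0.993, and its closest genes were Plcg2, Lcp2, Acap1, Pik3cd, and Arap3 (r from 0.983 down to 0.979), of which Plcg2, Lcp2, and Pik3cd encode signalling proteins found across leukocytes. These rankings are descriptions over 9 libraries that share 2 treatments.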

How the data were processed

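The RNA-Seq libraries of sorted Col1a1-GFP+ cells (4 aged sham, 5 aged bleo) were grouped by their sample labels. The authors deposited 1 table with raw read counts and FPKM values per gene and library. The submitters' processing notes name bcl2fastq, STAR 2.5.2b, Subread, featureCounts, mm10, and GRCm38, and whether counting used strand is not stated. The deposited FPKM values rest on a larger library total than the counts give, by a factor of 2.27 to 2.42.

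Genes whose counts averaged 25 or more over the libraries were tested with edgeR 4.0.16 (quasi-likelihood, TMM, no covariate) in R 4.3.3, following the thresholds of the study's methods (FDR under 0.10, fold change over 1.5) and replacing its moderated test, since the unit is counts. Log2 CPM values used a prior count of 2. Between libraries of a group the chi-square of the counts was 30.9 to 468 per degree of freedom, so none was a duplicate. Correlations were tested by two-sided exact permutation. The members and gene lists were chosen with earlier results of these data known. Besides the 10 members, the named genes are those past the thresholds or known as chemokine ligands among the ligands and adaptors, the most abundant and defining genes of each list, the gate genes, and the most alike genes, of which 1 is not reported here. Genes named in other lists because they passed the thresholds, and the ratios between members, were chosen after their values were seen. Marker lists of the cell types that the sort could hold cover neutrophil precursors, mature neutrophils, all leukocytes, macrophages, dendritic cells, other granulocytes, T and NK cells, B cells, endothelium, epithelium, erythroid cells, and fibroblasts. Alternatives were DESeq2 1.42.0, limma 3.58.1 on log2 CPM and on log2(FPKM + 0.1) and log2(FPKM + 1), RLE scaling, library size only, no filter, libraries left out, and replicate numbers as a block.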

Additional observations from a re-analysis of the deposited data

Results flagged for a closer look

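In the 5 aged bleo libraries, aged bleo 4 lay far above the rest for all 10 genes. The gap from aged bleo 4 to the next aged bleo library, divided by the whole range of the group, was 0.949 for S100a8, 0.950 for S100a9, 0.884 for Csf3r, 0.856 for Cxcr2, 0.964 for Retnlg, 0.914 for Clec4d, 0.888 for Clec4e, 0.864 for Ccr1, 0.827 for Cxcr4, and 0.903 for Trem1. Dixon's 95% critical value is 0.710 for 5 samples. The summed CPM of the other mature neutrophil genes (0.758) and of the pan-leukocyte genes (0.869) exceeded it in the same library. Of 26 groups examined, 12 exceeded their critical value, and all 12 belong to aged bleo 4. For normally distributed values chance gives about 1 in 20. These ratios were taken on CPM without a log, so that rate need not hold here. They were not computed on the log2 scale, where fewer might exceed the critical value. The 12 are not independent, since these genes vary together. In the 4 aged sham libraries no value exceeded the critical value of 0.829, although aged sham 4 was the highest for each of the 10 genes.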

How the results depend on the processing

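The count of genes past the thresholds went from 4022 to 1785 with limma on log2(FPKM + 1) and to 6177 with only the libraries whose names end in the same digit, where aged bleo 4 is the only aged bleo library and was assumed to vary like aged sham. It was 3525 to 4597 with each library left out. The count of members past them stayed at 0 under DESeq2, limma, RLE scaling, library size only, and no filter, and was 0 to 9 with each library left out, 8 without both aged sham 4 and aged bleo 4, and 1 (Cxcr4, higher) in the libraries with the shared digit. For the other mature neutrophil genes the count was 2 under DESeq2, 1 under limma on log2 CPM, 0 to 9 with each library left out, 7 without both libraries, and 1 with the shared digit. The count of ligands, partners, and adaptors was 8 to 12 with each library left out.

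Whether replicate numbers mark shared samples could not be settled. The correlations of the deviations of same-numbered libraries were 0.0922, 0.0623, -0.130, and 0.326. Of 8 libraries, 2 correlated best with their own number. With the replicate number as a block and aged bleo 5 left out, 5 members (Clec4d, Clec4e, Csf3r, Cxcr2, and Trem1) and 6 other mature neutrophil genes were lower in aged bleo past the thresholds, beside 10.2% of all genes. Since the labels state no shared mouse or day and not every correlation exceeded 0.1, no pairing was assumed.

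Signs changed as follows. Without aged sham 4, log2 fold changes were positive for S100a8 (0.39), S100a9 (0.16), Retnlg (0.81), Clec4d (0.041), and Ccr1 (0.27). With the shared digit they were positive for S100a8 (1.40), S100a9 (1.23), Csf3r (0.43), Cxcr2 (0.87), Retnlg (1.88), Clec4d (0.92), Clec4e (0.89), Ccr1 (1.08), and Trem1 (0.75). Retnlg was positive with library size only (0.020) and without aged bleo 1 (0.17), 2 (0.20), 3 (0.17), or 5 (0.16). Cxcr4 was negative under limma on log2 CPM (-0.12), log2(FPKM + 0.1) (-0.080), and log2(FPKM + 1) (-0.049), and without aged sham 1 (-0.0072), aged sham 2 (-0.10), aged bleo 4 (-0.76), or both high libraries (-0.25). Over the runs that left out 1 library, the log2 fold changes ranged from -1.69 to 0.39 for S100a8, -2.13 to 0.16 for S100a9, -1.82 to 0.81 for Retnlg, -1.66 to 0.041 for Clec4d, -1.29 to 0.27 for Ccr1, -0.76 to 0.65 for Cxcr4, -2.33 to -0.56 for Csf3r, -1.84 to -0.03 for Cxcr2, -1.95 to -0.04 for Clec4e, and -2.06 to -0.31 for Trem1. Apart from the libraries left out, the cause of these changes was not tested. The lowest count of a member in a library was 157, and the effect of depth was not tested.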

Other observations

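Marker lists of other cell types moved unevenly. The counts below stand beside 12.3% of all genes tested that passed the thresholds as higher in aged bleo and 11.5% as lower. Of the 6 eosinophil, basophil, and mast cell genes, 3 were tested, and these (Mcpt8, Cpa3, and Ms4a2, genes of basophils and mast cells) were higher in aged bleo past the thresholds in edgeR. Mcpt8 and Ms4a2, with 0 to 12 and 2 to 13 counts per aged sham library, entered the test only through aged bleo. The eosinophil genes Prg2 (0.0485 to 0.182 CPM in aged sham, 0 to 0.0374 CPM in aged bleo) and Epx (0 to 0.101 and 0 to 0.0187 CPM) were too scarce to be tested. The sum of the 6 genes, 1.16 to 4.38 CPM in aged sham and 6.77 to 24.9 CPM in aged bleo, was highest in aged bleo 3 and not in aged bleo 4, and its most abundant gene was Cpa3, a mast cell protease. Of 4 tested B cell genes, 4 were lower in aged bleo, led by Cd79a, with sums of 3.35 to 10.9 CPM in aged sham and 0.949 to 2.44 CPM in aged bleo. Of 6 tested T and NK cell genes (most abundant Cd3e), 0 passed the thresholds, and their sum was highest in aged bleo 4, at 28.4 CPM, among sums of 1.26 to 28.4 CPM over the libraries.

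Of 4 tested dendritic cell genes (most abundant Itgax), 0 passed, with sums of 25.9 to 43.4 CPM in aged sham and 33.8 to 73.0 CPM in aged bleo. Of 6 tested endothelial genes, 1 was higher (Kdr) and 1 lower (Tek, the most abundant), and of 7 epithelial genes 1 was higher (Krt8), with Sftpc the most abundant. Of 4 tested erythroid genes (most abundant Hba-a1), 0 passed, with sums of 0.710 to 16.4 CPM over the libraries. Of 9 fibroblast genes, 4 were higher and 2 lower, and the most abundant was Col3a1.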
